A study of Mus musculus with 6 samples.

Results

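The genes described here are the peroxisome proliferator-activated receptors (PPARs), their partner receptor gene Rxra, and genes for the uptake, binding and storage of fatty acids. They are 10 genes (Pparg, Ppard, Ppara, Rxra, Cd36, Fabp4, Fabp5, Dgat1, Dgat2 and Plin2), taken by symbol from the 53278 genes of the table. RNA was sequenced from type-2 innate lymphoid cells (ILC2s), sorted as lineage-negative CD45+ ST2+ CD117+ cells from the visceral adipose tissue of 8-week-old C57BL/6 mice, all of which had received 3 intraperitoneal injections of 1 µg IL-33. The sorted cells of both groups were cultured with IL-2 (10 ng/mL) and IL-7 (10 ng/mL), and 3 libraries were made after addition of DTA-1 (5 µg/mL), an agonistic antibody to the receptor GITR, and 3 after addition of its isotype control. The labels give 48 h of culture, while the study's results text gives a shorter time. The labels do not say whether the 3 libraries of a group came from separate mice or cultures, so p-values measure the spread between these libraries, which may be technical.

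PPARs are nuclear receptors that are activated by fatty acids and their derivatives and that bind DNA as heterodimers with a retinoid X receptor (RXR), at repeats of the hexamer AGGTCA. PPARγ, encoded by Pparg, is best known as the master regulator of adipocyte differentiation, and it is also expressed in ILC2s. PPARδ and PPARα, encoded by Ppard and Ppara, are best known for the control of fatty acid oxidation. Among the genes that PPARs control are those for the fatty acid translocase CD36, the fatty acid-binding proteins FABP4 and FABP5, which carry fatty acids in the cytoplasm, and perilipin 2 (Plin2), which coats lipid droplets. DGAT1 and DGAT2 are unrelated enzymes that catalyse the last step of triglyceride synthesis.

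The libraries held 34557215 to 35131329 counts with the isotype and 30569351 to 32492849 with DTA-1, and a count of 0 allowed up to 3 counts, or 0.0854 to 0.0981 CPM (counts scaled to library size). These limits cover counting error only. All 12 ILC2 marker genes were detected, Gata3 at 1525 to 1716 normalized counts and Il1rl1 at 1022 to 1286. A normalized count is here the CPM after TMM normalization. The library labelled DTA-1 replicate 1 lay closer to the isotype control libraries than to the other DTA-1 libraries: the chi-square of their counts per degree of freedom was 10.2 to 12.0 against 29.5 and 30.8. For the 8 genes tested, values without this library are given beside those with it. It was singled out for its likeness to the isotype control, so leaving it out favours a difference between the groups. Over all genes tested, edgeR called 0 genes with all 6 libraries and 111 without this library. Values without it are therefore no separate support for a change.

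Pparg and Plin2 were abundant in the ILC2s of both groups, while Ppara had no count in any library. To compare genes, normalized counts were divided by the length of the longest basic coding transcript in kilobases. On this scale Plin2 was highest, at 407 ± 22.4 per kilobase (SD, n = 6 libraries of both groups), and it ranked at number 149 of the 21634 coding genes with a transcript length. Pparg followed at 76.8 ± 2.61, Fabp5 at 70.0 ± 6.85 and Dgat1 at 68.7 ± 5.87 per kilobase, and the ranges of these neighbours overlapped. Pparg ranked at number 1166 of the coding genes. Below them came Dgat2 at 12.1 ± 1.63 and Rxra at 4.68 ± 0.491 per kilobase, each apart from its neighbours in all libraries. Cd36 had 0.813 ± 0.487 and Ppard 0.382 ± 0.125 per kilobase, with overlapping ranges. Fabp4 had 0 to 0.475 per kilobase. With the length of all annotated exons Fabp5 and Dgat1 changed places, at 19.4 and 42.5 per kilobase. That length also lowered Plin2 to 219, Pparg to 55.2, Dgat2 to 8.87 and Ppard to 0.167 per kilobase, and the order of the others was as before.

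**Figure D1:**
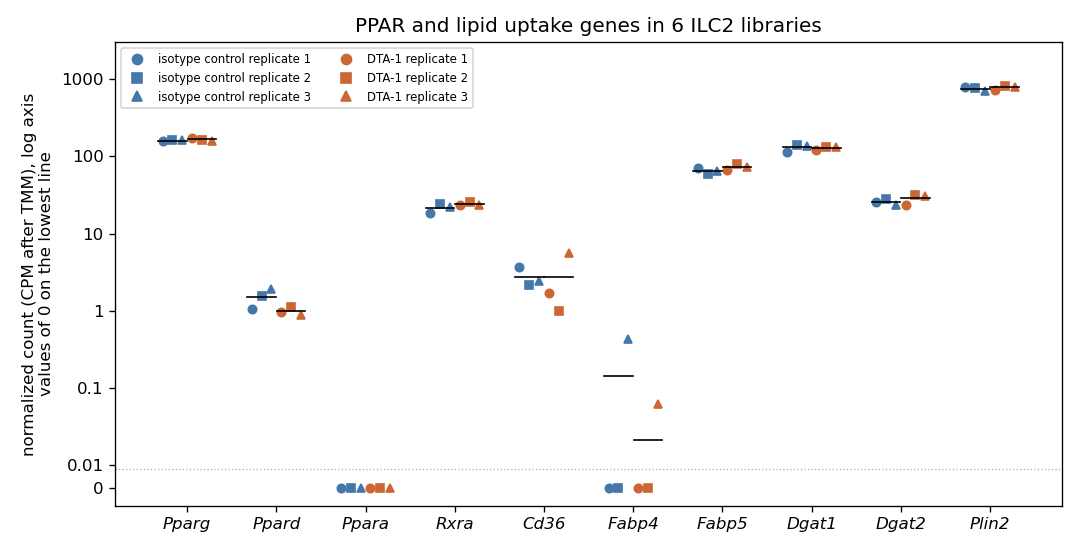
Normalized count (CPM after TMM, log axis, with values of 0 on the lowest line) of the 10 genes in each of the 6 libraries, with symbols for the libraries and black lines for the group means (n = 3 each). Plin2 lay between 706 and 819.6 and Pparg between 157 and 173 in all libraries, Ppara was at 0 in all of them, and Cd36 had the widest scatter among the genes with counts in every library.

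Shares were computed within 4 gene families, and in the PPAR, fatty acid-binding protein and perilipin families 1 gene carried nearly all of the signal. All shares and ratios used the length of the longest coding transcript and were not computed with the length of all exons. Pparg made up 99.2 to 99.6% of the summed level per kilobase of the 3 PPAR genes, and it was 129 to 280.1 times the level of Ppard. Fabp5 made up 99.08% or more of the 7 genes of the fatty acid-binding protein family that were examined. Of the other 6 genes Fabp1, Fabp2, Fabp6 and Fabp7 had no count in any library. Plin2 made up 94.4 to 95.8% of the 5 perilipin genes, and Plin3, which coats small droplets, made up 4.23 to 5.58%. Of the others, Plin5 was at 0 in all libraries, and Plin1, the perilipin of adipocytes, had 1 count in each of 2 libraries. In the RXR family Rxra was not the main gene. Rxrb made up 79.3 to 82.5% of the 3 RXR genes per kilobase and Rxra 10.5 to 16.1%. The family members that are not among the 10 genes were picked for mention after their values were seen.

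**Figure D2:**
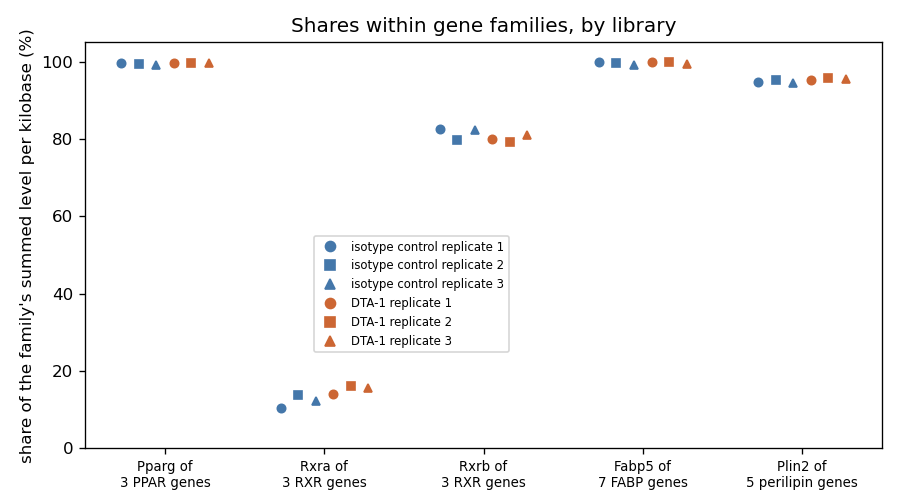
Share (%) of single genes in the summed level per kilobase of their gene family, for each of the 6 libraries. Pparg, Fabp5 and Plin2 lie above 94% of their families in all libraries, while Rxra lies between 10.5 and 16.1% and Rxrb between 79.3 and 82.5%.

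With DTA-1, 0 of the 8 genes that could be tested were differentially expressed. The call needed an adjusted p below 0.05 by edgeR's quasi-likelihood test together with 1.5-fold or more. Ppara and Fabp4 had too few counts for the test. Among all 14361 genes tested the call was made for 0 genes (0.0%). Without adjustment (p below 0.05) 0 of the 8 passed, against 7.22% of all genes tested, or 2.35% of them where 1.5-fold was also required. In 0 of the 8 did the DTA-1 libraries lie all above or all below the isotype control libraries, against 11.3% of all genes tested. DESeq2's Wald test called 0 of the 8 as well, against 0.152% of all genes. After replicate 1 of the DTA-1 label was dropped, edgeR called 0 of the 8, against 0.744% of all genes (0.583% higher and 0.161% lower). The median log2 fold change (DTA-1 over isotype control) of the 8 was 0.05, beside −0.01 for all genes tested. For 6 of the 8 (Pparg, Rxra, Fabp5, Dgat1, Dgat2 and Plin2) the 95% confidence interval (CI) lay within a 1.5-fold change in both directions, as it did for 58.9% of all genes tested. The intervals of Ppard and Cd36, which had the fewest counts of the 8, reached beyond it.

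**Figure D3:**
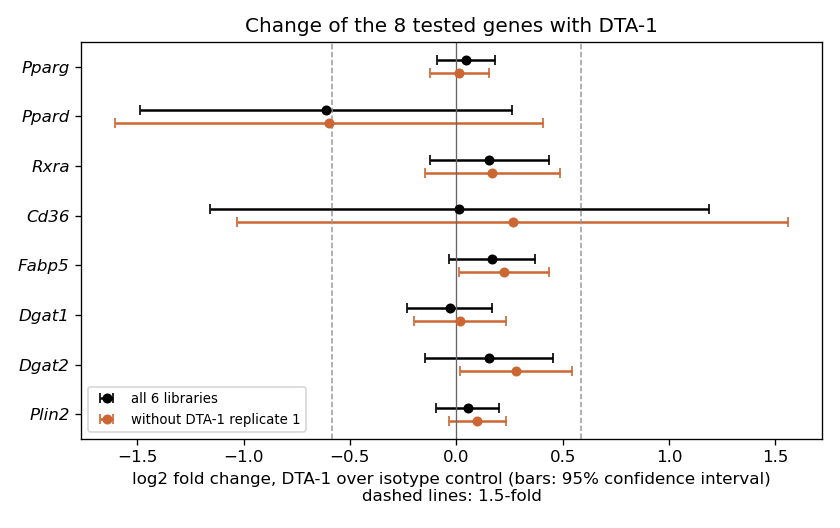
Log2 fold change of DTA-1 over isotype control for the 8 tested genes, with 95% confidence intervals from edgeR, for all 6 libraries (black) and after replicate 1 of the DTA-1 label was dropped (orange). All intervals from all 6 libraries include 0, and those of Ppard and Cd36 extend beyond the dashed lines at 1.5-fold. The orange intervals of Fabp5 and Dgat2 do not include 0 (edgeR adjusted p = 0.329 and 0.326).

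Among the nuclear receptor genes, Pparg (chromosome 6, 115360951 to 115490399, in the GRCm38/mm10 build as for all positions given) had the narrowest scatter of the 8. Its normalized counts were 157, 164 and 161 with the isotype (replicates 1, 2 and 3, in this order throughout) and 173, 165 and 159.6 with DTA-1. The groups overlapped, and the highest value was that of the library labelled DTA-1 replicate 1. Pparg had a log2 fold change of 0.04 ± 0.06 (standard error, SE, 95% CI −0.09 to 0.18, adjusted p = 0.912 by edgeR). Leaving that library out gave 0.01 (edgeR adjusted p = 0.958).

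The second receptor, Ppard (chromosome 17, 28232754 to 28301469), had few counts. Its counts were 37, 55 and 68 with the isotype and 30, 35 and 28 with DTA-1, which equals 1.05, 1.57 and 1.93 against 0.970, 1.12 and 0.878 normalized counts. The lowest isotype control library lay below the highest DTA-1 library, so the groups overlapped. For Ppard the log2 fold change was −0.61 ± 0.40 (SE, 95% CI −1.49 to 0.26, adjusted p = 0.764 by edgeR), and −0.60 with replicate 1 of the DTA-1 label dropped (adjusted p = 0.615). Over the alternatives it ranged from −0.81 without isotype control replicate 1 to −0.40 without isotype control replicate 3. Ppara (chromosome 15, 85734983 to 85802819) had 0 counts in each of the 6 libraries, which allows up to 3 counts in each.

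The partner receptor gene Rxra (chromosome 2, 27676440 to 27762957) had 18.5, 24.4 and 22.3 normalized counts with the isotype and 23.7, 25.4 and 23.5 with DTA-1. The DTA-1 libraries lay inside or just above the isotype control range, and isotype control replicate 1 was lowest. Rxra had a log2 fold change of 0.16 ± 0.13 (SE, 95% CI −0.12 to 0.43, adjusted p = 0.828 by edgeR), and 0.17 with replicate 1 of the DTA-1 label dropped (adjusted p = 0.660). Its paralog Rxrb, picked after its values were seen, had 77.8 ± 2.69 normalized counts with the isotype and 68.4 ± 3.49 with DTA-1 (SD, n = 3 a group), and every DTA-1 library was below every isotype control library, as for 6.03% of all genes tested. Rxrb differed by −0.19 ± 0.08 on the log2 scale (SE, adjusted p = 0.657 by edgeR). The share of Rxra among the RXR genes was 12.2 ± 1.73% with the isotype and 15.2 ± 1.03% with DTA-1 (SD, n = 3 a group), with all DTA-1 libraries above all isotype control libraries. This was 1 of 11 shares and ratios computed, and it was not tested.

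Among the uptake and binding genes, Cd36 (chromosome 5, 17781690 to 17888801) varied more between libraries than Fabp5, the other such gene with counts in every library. It had 3.67, 2.14 and 2.44 normalized counts with the isotype and 1.71, 0.993 and 5.62 with DTA-1, so that the highest and the lowest library both belonged to DTA-1. For Cd36 the log2 fold change was 0.01 ± 0.53 (SE, 95% CI −1.16 to 1.19, adjusted p = 0.998 by edgeR), and 0.26 with replicate 1 of the DTA-1 label dropped (adjusted p = 0.890). The value for Cd36 turned to −1.02 without DTA-1 replicate 3, where Cd36 had an unadjusted p of 0.0354 by edgeR and passed 1.5-fold (adjusted p = 0.999), as did 2.29% of all genes tested in that comparison. Lpl, which encodes lipoprotein lipase and was picked after its values were seen, was highest in the same 2 libraries as Cd36, with 145, 16 and 53 counts with the isotype and 8, 58 and 174 with DTA-1.

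Cd36 and Fabp4 are also expressed by endothelial cells, macrophages and adipocytes of adipose tissue, and Lpl by the macrophages and adipocytes. The sort took CD45+ cells and left out cells with the lineage markers CD11b and CD11c. Some marker genes of other cell types had counts all the same. Of 7 adipocyte marker genes Lep, Cidec and Cfd were at 0 in all libraries and Adipoq had 1 count in 1 library. The summed level of the list was 33.8 to 38.7 normalized counts with the isotype and 30.5 to 34.2 with DTA-1, nearly all of it from Lipe. Of 7 endothelial marker genes Cdh5 and Emcn were at 0 in all libraries. That list summed to 18.4 to 24.5 with the isotype and 10.8 to 18.4 with DTA-1, nearly all from Pecam1. Of 8 macrophage marker genes C1qb was at 0 in all libraries, and the list summed to 6.44 to 12.2 with the isotype and 8.67 to 11.9 with DTA-1, mostly from Cd68 and Adgre1. In DTA-1 replicate 3, where Cd36 and Lpl were highest, the endothelial gene Tek had 19 counts and the macrophage gene Mrc1 had 16. Both had 0 counts elsewhere and were picked after their values were seen. Pecam1, Cd68 and Adgre1 were each highest in another library. The part of such cells in the counts of Cd36, Fabp4 and Lpl was not tested. In bulk samples fewer cells of a type and less RNA per cell cannot be told apart.

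The binding protein genes Fabp4 and Fabp5 both lie on chromosome 3, with 187 kb between them, and differed widely in level. Fabp4 (chromosome 3, 10204088 to 10208576), the binding protein of adipocytes, had 15 counts in isotype control replicate 3, 2 counts in DTA-1 replicate 3 and 0 in the other 4 libraries. In isotype control replicate 3 the fibroblast markers summed to 10.7 normalized counts, the highest of the 6 libraries. The macrophage markers summed to 12.2 there, of which Cd68 gave 7.97 and Adgre1 3.77, and to 11.9 in DTA-1 replicate 2, where Fabp4 had no count. The markers named next were picked after their values were seen. The endothelial gene Flt1 had 12 counts in isotype control replicate 3 and 0 elsewhere, while Kdr and Tek had 0 in that library. The dendritic cell genes Flt3 and Cd209a had 12 and 11 counts there, 2 and 7 in DTA-1 replicate 3 and 0 elsewhere. Itgax, Xcr1 and Zbtb46 of the same list had counts in every library. The part of such cells was not tested. Fabp5 (chromosome 3, 10012548 to 10016607) had 70.1, 60.0 and 65.1 normalized counts with the isotype and 67.3, 79.95 and 72.0 with DTA-1. The groups overlapped, since the library labelled DTA-1 replicate 1 lay below isotype control replicate 1. Fabp5 had a log2 fold change of 0.17 ± 0.09 (SE, 95% CI −0.04 to 0.37, adjusted p = 0.738 by edgeR). Dropping replicate 1 of the DTA-1 label gave 0.22 (unadjusted p = 0.0408 and adjusted p = 0.329 by edgeR). The share of all genes with an unadjusted p under 0.05 in that fit was not computed. Reads of Fabp5 can be shared with 5 processed pseudogenes of 93.6 to 98.3% identity. The table gives these 21.5 to 44.2 counts in all, or 0.855 to 1.75% of the sum with Fabp5.

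Of the triglyceride synthesis genes, Dgat1 (chromosome 15, 76502015 to 76511951) had 113, 142 and 138 normalized counts with the isotype and 119.5, 134 and 132 with DTA-1. All DTA-1 libraries lay within the isotype control range. For Dgat1 the log2 fold change was −0.03 ± 0.09 (SE, 95% CI −0.23 to 0.17, adjusted p = 0.961 by edgeR), and 0.02 with replicate 1 of the DTA-1 label dropped (adjusted p = 0.963). Dgat2 (chromosome 7, 99153658 to 99182719) had 25.7, 28.5 and 23.5 normalized counts with the isotype and 23.4, 31.9 and 31.1 with DTA-1. The library labelled DTA-1 replicate 1 was the lowest of all 6, and the other DTA-1 libraries were the highest. Dgat2 had a log2 fold change of 0.15 ± 0.14 (SE, 95% CI −0.15 to 0.45, adjusted p = 0.847 by edgeR). Leaving that library out gave 0.28 (unadjusted p = 0.0401 and adjusted p = 0.326 by edgeR). As for Fabp5, the share of all genes at such an unadjusted p in that fit was not computed. Per kilobase Dgat1 was 5.29, 5.98 and 7.02 times the level of Dgat2 with the isotype and 6.11, 5.04 and 5.07 times with DTA-1, again with overlap.

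Plin2 (chromosome 4, 86648386 to 86670060), which encodes the lipid droplet coat protein, had 786, 769 and 706 normalized counts with the isotype and 732, 819.6 and 796 with DTA-1. The groups overlapped, and isotype control replicate 3 was lowest. For Plin2 the log2 fold change was 0.05 ± 0.07 (SE, 95% CI −0.10 to 0.20, adjusted p = 0.901 by edgeR). Dropping replicate 1 of the DTA-1 label gave 0.10 (edgeR adjusted p = 0.517).

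Plin2 and Cd36 are genes that PPARs control and lay near the top and the bottom of the levels, and their promoters are shown. The 250 bases before the start are printed as given by RefSeq for GRCm38.p6, from 5′ to 3′ on the strand of the gene, in lower case with the AGGTCA hexamer, here read as TGACCT from the opposite strand, in capitals. The Plin2 stretch is chr4:86670060-86670309 (minus strand) and the Cd36 stretch is chr5:17835897-17836146 (minus strand). The Cd36 start in RefSeq lies inside the span given above for the gene, downstream of its outermost annotated start.
Plin2: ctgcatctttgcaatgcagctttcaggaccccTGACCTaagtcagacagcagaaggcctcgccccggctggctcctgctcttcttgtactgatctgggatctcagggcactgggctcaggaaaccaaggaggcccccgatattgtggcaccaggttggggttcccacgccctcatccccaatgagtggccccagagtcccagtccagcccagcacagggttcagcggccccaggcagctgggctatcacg
Cd36: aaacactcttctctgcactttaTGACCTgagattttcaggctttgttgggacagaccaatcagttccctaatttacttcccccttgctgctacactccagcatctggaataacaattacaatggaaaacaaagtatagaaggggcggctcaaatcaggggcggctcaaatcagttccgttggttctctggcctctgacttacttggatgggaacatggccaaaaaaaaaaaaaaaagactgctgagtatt
The hexamer begins 218 bases before the start in Plin2 and 228 bases before it in Cd36. Promoter entries were found for 6 of the 10 genes (Pparg, Ppard, Ppara, Rxra, Cd36 and Plin2), with 9 windows in all. The other windows with a match were those of 2 of the 3 Pparg starts, 28 and 9 bases before them, and 1 of the 2 Rxra starts. AGGTCA on either strand was thus in 5 of the 9 windows and in 14.0% of all 32851 windows of the same length. The direct repeat, with AGGTCA followed by any base and AGGTCA again, overlaps the first motif and was in 0 of the 9 and in 0.0335% of all windows. A match of letters is a description and not a binding site.

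The other genes of the pathway were described from 5 lists with 72 genes, of which 52 were tested and 10 had no count in any library. None of the 52 was differentially expressed with DTA-1 (0 genes by edgeR, against 0.0% of all genes tested). Without adjustment (p below 0.05 and 1.5-fold) 1 gene passed, which was lower, against 2.35% of all genes tested. After replicate 1 of the DTA-1 label was dropped the count was 0 of 54, against 0.744%, and by DESeq2's Wald test it was 1, against 0.152%. The median log2 fold change of the 52 was 0.02, with 30 values above 0 and 22 below. In 12 of the 52 genes the groups did not overlap, with 6 genes higher and 6 lower in DTA-1. Each is a larger share than among all genes tested (5.26% for higher and 6.03% for lower). The lists were chosen with earlier results known, and the difference in share was not tested.

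Of 13 receptor partners and coregulators 12 were tested, and their median log2 fold change was −0.06. The gene of the coactivator PGC-1α, Ppargc1a, was at 0 in all libraries. The corepressor gene Ncor1 had 318 ± 10.8 normalized counts with the isotype and 291 ± 12.1 with DTA-1, and the coactivator gene Ncoa3 had 163 ± 16.7 and 169.6 ± 18.4 (SD, n = 3 a group). For Ncor1 every DTA-1 library was lower (log2 fold change −0.12, edgeR adjusted p = 0.717), and for Ncoa3 the groups overlapped (0.06, edgeR adjusted p = 0.930).

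Of 13 other PPAR target genes 10 were tested, with log2 fold changes between −0.18 and 0.17. Ucp2, which encodes a mitochondrial carrier, was the most abundant gene of the lists, with 2254 ± 13.2 normalized counts with the isotype and 2335 ± 62.1 with DTA-1 (SD, n = 3 a group). Per kilobase Ucp2 had 575 ± 15.0 (SD, n = 6), above Plin2. Every DTA-1 library was higher for Ucp2 (log2 fold change 0.05, edgeR adjusted p = 0.875). Ech1, an enzyme of fatty acid oxidation, had 235 ± 9.14 and 222 ± 10.6 normalized counts (log2 fold change −0.08, edgeR adjusted p = 0.810). Adipoq, the adipocyte gene for adiponectin, had 1 count in the 6 libraries.

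Of 21 genes for the uptake of fatty acids and lipoproteins 12 were tested, and 9 had a positive and 3 a negative log2 fold change, with a median of 0.22. The acyl-CoA synthetase genes Acsl5 and Acsl4, whose products activate fatty acids, were the most abundant. Acsl5 had 303 ± 14.9 normalized counts with the isotype and 294 ± 4.39 with DTA-1 (log2 fold change −0.04, edgeR adjusted p = 0.916). Acsl4, known for its preference for arachidonic acid, had 130.0, 163 and 142 normalized counts with the isotype and 164, 193 and 203 with DTA-1, and every DTA-1 library was higher, though by little over isotype control replicate 2. Acsl4 had a log2 fold change of 0.36 ± 0.10 (SE, adjusted p = 0.626 by edgeR). Dropping replicate 1 of the DTA-1 label gave 0.45, with an edgeR adjusted p of 0.0454 (range 0.0454 to 0.999 over the alternatives), short of 1.5-fold. That library was chosen for its likeness to the isotype control, so this fit favours a difference.

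The gene that passed the unadjusted p and 1.5-fold was Lrp1, a large endocytic receptor for lipoproteins and other ligands. Its counts were 32, 27 and 69 with the isotype and 5, 5 and 1 with DTA-1, so all DTA-1 libraries were lower. For Lrp1 the log2 fold change was −3.33 ± 0.69 (SE, adjusted p = 0.491 by edgeR). With DESeq2's Wald test its adjusted p was 0.0419, the lowest over the alternatives, and the highest was 0.997. Lrp1 is strongly expressed in fibroblasts and macrophages. The 7 fibroblast marker genes, all of them detected, summed to 2.08 to 10.7 normalized counts with the isotype and 0.873 to 4.89 with DTA-1, so the sums overlapped. Among them Col1a1, picked after its values were seen, had 60, 56 and 68 counts with the isotype and 0, 9 and 3 with DTA-1, without overlap. All other fibroblast markers of the list overlapped between the groups. Col3a1, for example, had 57, 3 and 102 counts with the isotype and 0, 0 and 92 with DTA-1. In the library labelled DTA-1 replicate 1 the sum of the list was Pdgfrb alone. The part of fibroblasts in the difference of Lrp1 was not tested.

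Of 19 genes for triglyceride synthesis and lipid droplets 13 were tested, with log2 fold changes between −0.15 and 0.31 and a median of 0.10. Bscl2, which encodes seipin of the lipid droplet junction, had 164 ± 5.39 and 156 ± 13.9 normalized counts (log2 fold change −0.08, edgeR adjusted p = 0.859). Agpat3, an acyltransferase gene of phospholipid and triglyceride synthesis, had 136 ± 3.93 and 145 ± 12.2 (0.10, edgeR adjusted p = 0.816). Of 6 lipolysis genes 5 were tested, 4 of them with a negative log2 fold change and a median of −0.14. Pnpla2, the gene of adipose triglyceride lipase, had 76.6 ± 1.39 and 69.1 ± 1.22 normalized counts, with every DTA-1 library lower (−0.15 ± 0.07, SE, adjusted p = 0.702 by edgeR). Lipa, the gene of lysosomal acid lipase, had 58.5 ± 1.83 and 57.1 ± 5.84 (−0.03, edgeR adjusted p = 0.956). All pairs of values are isotype control and DTA-1 (SD, n = 3 a group).

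**Figure D4:**
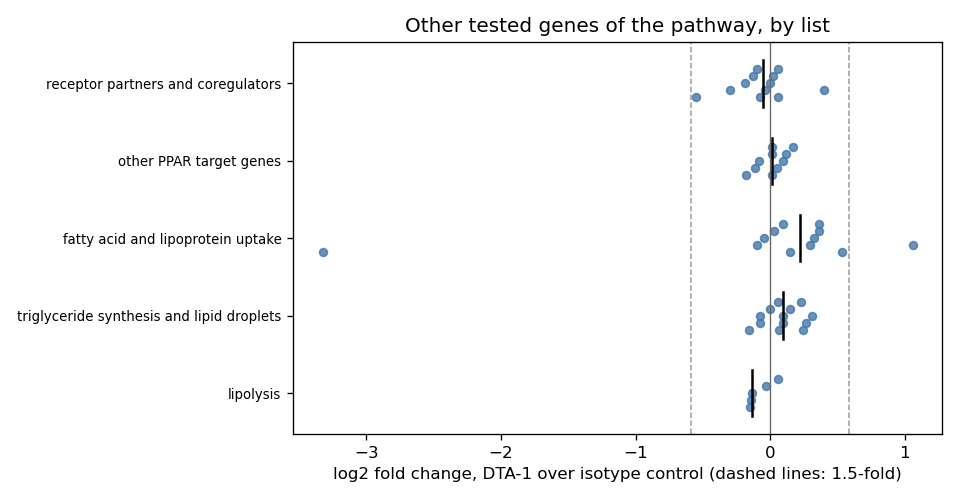
Log2 fold change of DTA-1 over isotype control for the 52 tested genes of the 5 pathway lists (points) with the median of each list (black lines) and dashed lines at 1.5-fold. The medians lie between −0.14 and 0.22, and the point at −3.33 is Lrp1.

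The genes whose pattern over the 6 libraries was most like that of Pparg, among 8722 others with a mean of at least 10 normalized counts, were Arap3, Arhgap17, Dnajc1, Snx1 and Pja1. Their log2 normalized counts had a Pearson r with Pparg of 0.985, 0.978, 0.976, 0.971 and 0.965. All 5 were highest in the library labelled DTA-1 replicate 1 and lowest in isotype control replicate 1, and values that share a library share its preparation and depth. This is a description over 6 libraries, for which no p is given. Rxra had an r of 0.61 with Pparg and ranked at number 573. Plin2 had an r of −0.30, Dgat2 of −0.26, Fabp5 of −0.10 and Dgat1 of 0.01.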

How the data were processed

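RNA-seq was measured in 6 libraries, 3 for each group, grouped by the titles given by the submitters, with every sample column used. Per the methods and labels, the authors used Partek software for alignment and quantification. The submitters' processing notes list bcl2fastq 2.17.1.14, Partek, STAR 2.5.3a and mm10. The annotation release, the strand setting and the treatment of shared reads are not given in the sources used here. The deposited values are expected counts (not normalized estimates of the reads of a gene), and 77.8% of them are whole numbers. They were rounded before the fits. The table's coordinates were compared with GENCODE mouse release 21 (GRCm38). After 1 base was taken from the table's end positions, 96.0% of 49721 shared symbols had the same position, including 8 of the 10 genes. Pparg overlaps the antisense gene Gm44079, which had 1 to 7 counts.

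Genes were filtered with edgeR's filterByExpr, which kept 14361 genes. DTA-1 was compared with isotype control by edgeR 4.0.16 (TMM, robust quasi-likelihood F test, Benjamini-Hochberg adjustment over all genes tested) in R 4.3.3. The methods of the paper name no model, and the limits of an adjusted p of 0.05 and 1.5-fold follow its RNA-seq figure. The paper reports differentially expressed genes at these limits, while the fit used here called 0 of 14361 genes. The reason for this difference was not tested. The standard error is the log2 fold change over the square root of its F. Alternatives used limma 3.58.1, DESeq2 1.42.0, other filters and scalings, a replicate block and each library left out. The fit was tested on simulated data. Python 3.11.15 was used for tables and figures.

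The 10 genes, the lists and the tests were chosen with earlier results of these data known. The genes named are the 10, the pathway genes that passed the test or the unadjusted limits, the top 2 of each list by mean, and the 5 most like Pparg. Correlations used log2 of the normalized count plus 0.5. Genes at 0 and family members outside the 10 were named after their values were seen.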

Additional observations from a re-analysis of the deposited data

How the results depend on the processing

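The 13 alternatives gave 104 values for the 8 genes, none of which passed an adjusted p under 0.05 with 1.5-fold (adjusted p 0.326 to 0.9999), and 95 kept their direction. Cd36 turned negative with total counts (−0.023), limma-trend (−0.32), the replicate block (−0.32) and without isotype control replicate 2 (−0.14), isotype control replicate 3 (−0.07) or DTA-1 replicate 3 (−1.02), and with each library left out it ranged from −1.02 to 0.42. Dgat1 turned positive without isotype control replicate 2 (0.031), isotype control replicate 3 (0.01) or DTA-1 replicate 1 (0.02), and with each library left out it ranged from −0.12 to 0.031. The count of the 8 at an unadjusted p under 0.05 and 1.5-fold was 0 to 1 with each library left out, the 1 being Cd36 without DTA-1 replicate 3. The count of pathway genes called was 1 with DESeq2's Wald test (Lrp1) and 0 with the other alternatives. The cause of these changes was not tested. Same-numbered libraries did not deviate together (r of −0.01, 0.00 and 0.02 for replicates 1, 2 and 3). These r values cannot tell whether such libraries shared a mouse or a culture, which the labels do not give. The replicate block called 0 of the 8 and 0 pathway genes. Levels per kilobase were also computed with the length of all exons, chosen after seeing the data. Ppara and Fabp4 gave no test with the filter, and at 28 to 68 counts a library the interval of Ppard could not separate a fall of over 1.5-fold from no change.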
